A study of Homo sapiens with 6 samples.

Results

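Collagens were taken as the protein-coding genes whose symbol has the form COL, a number, A and a number. The count tables held 44 such genes, of 60483 gene ids in all. Of these, 22 had at least 10 reads in at least 2 of the 6 libraries and are described here: 7 of 11 fibrillar collagens, 4 of 8 basement membrane collagens and 11 of 25 others. A further 19 had some reads without reaching that level, and COL9A1, COL10A1 and COL28A1 had 0 reads in every library. Just inside the rule stood COL17A1, with 11 and 3 reads in shSRPK1, 42 and 3 in oeSRPK1 and 2 and 5 in untreated cells. Just outside it stood COL15A1, with 1 and 1, 14 and 3, and 7 and 7 reads in the same order of groups.

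The cells were T98G, an established human glioblastoma line, and each group gave 2 libraries of polyadenylated RNA. In shSRPK1, cells were transiently transfected with a hairpin against SRPK1, a kinase of serine/arginine-rich splicing factors, carried by the vector pLKO.1. In oeSRPK1 they were transiently transfected with full-length SRPK1 cDNA in pcDNA3.1, and NT cells were untreated. Against NT, an effect of transfection cannot be told apart from one of the construct, because no cells transfected with an empty or unrelated vector were analysed here, and oeSRPK1 and shSRPK1 also differed in their vector. Libraries of 1 group are described as biological replicates in the series text, which does not mention separate cultures, so p-values measure the spread between these libraries, which may be partly technical.

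Collagen chains wind around each other into a long triple helix, which a regular repeat of glycine allows to pack, and the chain types decide what is built. Fibrillar collagens form the cross-banded cables of connective tissue, type IV forms the sheet-like network of basement membranes, and the remaining families make beaded filaments, anchoring fibrils, fibril coats, short-chain lattices or membrane-spanning molecules. Chains are hydroxylated and glycosylated in the endoplasmic reticulum, folded with chaperones, trimmed of their propeptides outside the cell and crosslinked by lysyl oxidases. In the brain, collagens lie mainly around vessels and in the meninges, and glioma cells in culture can secrete them.

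Promoter sequence is shown for the loci on which the comparisons below turn. It comes from RefSeq (GRCh38.p14), which matched 15 of the 22 collagens, and is given 5′ to 3′ with capitals marking GGGCGG (a GC box, the core bound by SP1), CCAAT and TATAAA on either strand. COL4A1 and COL4A2 lie head to head on chromosome 13, and the 126 bases between their starts (chr13:110307158-110307283, strand of COL4A2) hold 1 GC box and 1 CCAAT match. COL5A1 (chr9:134641553-134641802, plus strand) and COL7A1 (chr3:48595330-48595579, minus strand) are shown for the 250 bases before the start because both were called higher in each transfected group than in NT.
COL4A1-COL4A2: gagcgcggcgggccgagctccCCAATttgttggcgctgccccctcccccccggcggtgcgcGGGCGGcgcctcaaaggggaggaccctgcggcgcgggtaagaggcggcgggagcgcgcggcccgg
COL5A1: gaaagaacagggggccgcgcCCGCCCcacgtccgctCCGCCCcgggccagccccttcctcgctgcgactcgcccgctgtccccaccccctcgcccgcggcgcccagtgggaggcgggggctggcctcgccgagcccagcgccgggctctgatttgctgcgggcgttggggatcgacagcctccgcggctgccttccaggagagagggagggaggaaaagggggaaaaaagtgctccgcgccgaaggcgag
COL7A1: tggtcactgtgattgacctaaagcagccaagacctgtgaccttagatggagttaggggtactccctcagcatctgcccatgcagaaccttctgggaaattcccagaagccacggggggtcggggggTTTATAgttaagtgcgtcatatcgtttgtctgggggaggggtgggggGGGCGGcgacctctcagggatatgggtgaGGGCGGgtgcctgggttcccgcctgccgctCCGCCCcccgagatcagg
The COL5A1 stretch holds 2 GC boxes, and the COL7A1 stretch holds 3 GC boxes and 1 TATAAA match. Of the 15 matched collagens, 10 had a GC box in that window (66.7%), against 42.3% of all 27305 RefSeq promoters. For CCAAT the share was 26.7% of the collagens and 33.0% of all promoters, and for TATAAA it was 26.7% and 11.1%. TGANTCA, the AP-1 element, was found in 0 of the 15 collagen windows and in 6.6% of all windows. A match of letters is a description only, not a shown binding site.

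Gene reads ranged from 3891549 in oeSRPK1 2 to 22691215 in oeSRPK1 1, and 3 reads stood for 0.135 to 0.776 normalised CPM, the count scaled to a fixed library size. Replicates correlated at 0.975 in shSRPK1, 0.984 in oeSRPK1 and 0.992 in NT on log2 CPM. SRPK1 itself had 113 and 140.1 CPM in shSRPK1, 190.3 and 168 CPM in oeSRPK1, and 153 and 140.4 CPM in NT. Its log2 fold change against NT was -0.21 ± 0.14 in shSRPK1 (edgeR adjusted p = 0.360) and 0.29 ± 0.14 in oeSRPK1 (edgeR adjusted p = 0.175), so neither passed the threshold of 0.05. It was higher in oeSRPK1 than shSRPK1 cells (0.50 ± 0.14, edgeR adjusted p = 0.0377), and groups are named by their labels throughout. The glial markers SOX2, S100B and AQP4 had 0 reads in every library and GFAP had 1 read in all, while VIM and CD44 were abundant. OLIG2, NES and CHI3L1 were low, with 8 to 73, 5 to 25 and 9 to 215 reads. Against NT, OLIG2 was called higher in oeSRPK1 (1.59 ± 0.39, edgeR adjusted p = 0.0262) and CHI3L1 lower (-2.33 ± 0.27, 0.00171). These were 2 of 5 tested glial markers, against 20.6% of all tested genes, and 0 were called in shSRPK1 against NT. The 14 skeletal muscle markers in the tables summed to 75.5 and 80.2 CPM in shSRPK1, 358 and 3135 CPM in oeSRPK1, and 68.6 and 71.0 CPM in NT. Both oeSRPK1 libraries thus stood above the rest, with oeSRPK1 2 by far the highest. TNNT1 gave most of the sum in shSRPK1 (73.9 and 65.7 CPM) and in NT (67.8 and 69.3 CPM). MYH7 had 0 and 61 reads in shSRPK1, 2399 and 4905 in oeSRPK1, and 0 and 0 in NT. In bulk RNA such as this, fewer cells of a kind and less RNA per cell cannot be told apart.

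**Figure D1:**
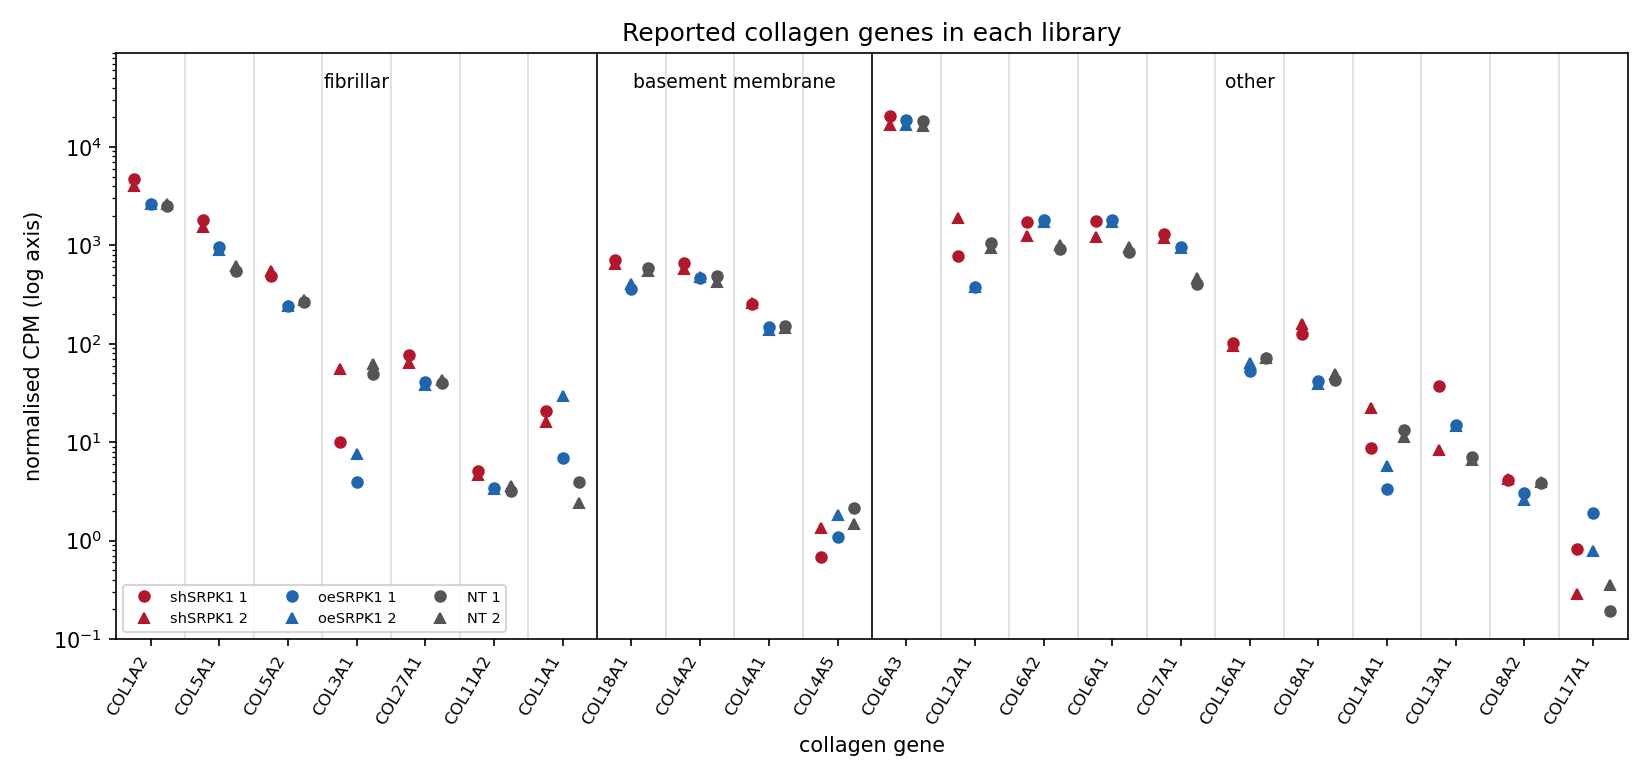
Normalised CPM, on a log axis, of each reported collagen in each of the 6 libraries, with colours for the groups (shSRPK1, oeSRPK1, NT), circles for replicate 1, triangles for replicate 2 and genes ordered by class. COL6A3 lies highest, between 16424 and 20699 CPM, and COL1A1, COL3A1, COL12A1, COL13A1 and COL14A1 show the widest gaps between points of the same colour.

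Collagen RNA in T98G cells was dominated by type VI, and within type I by a chain imbalance. Collagens took 3.43% and 2.93% of gene reads in shSRPK1, 2.83% and 2.65% in oeSRPK1, and 2.75% and 2.56% in NT. COL6A3, the longest chain of the beaded type VI filament, alone held 58.6% and 55.4% of the collagen reads in shSRPK1, 65.7% and 63.3% in oeSRPK1, and 69.7% and 66.5% in NT. Without COL6A3, collagens held 1.42% and 1.31% of gene reads in shSRPK1, against 0.969% and 0.971% in oeSRPK1 and 0.835% and 0.858% in NT. The shSRPK1 libraries were thus the highest on this share, and the groups did not overlap. Fibrillar collagens gave the same order for shSRPK1, with 0.692% and 0.602% of gene reads, against 0.380% and 0.382% in oeSRPK1 and 0.355% and 0.377% in NT.

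**Figure D2:**
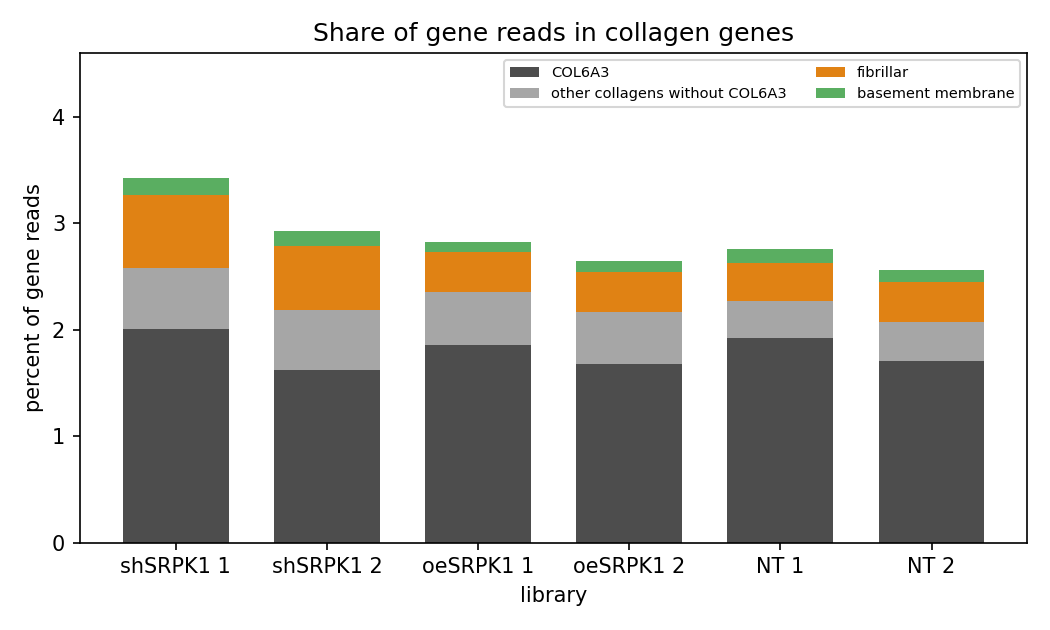
Percent of gene reads in collagen genes in each library, stacked by COL6A3 and the remaining collagens by class, with the bars starting at 0. The total lies between 2.56% in NT 2 and 3.43% in shSRPK1 1, and COL6A3 is the largest piece of every bar.

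On the scale of CPM per kilobase of exon, which lets genes be compared, COL6A3 averaged 954 in shSRPK1, 913 in oeSRPK1 and 888 in NT. COL1A2, the alpha-2 chain of type I, had 391, 235 and 229 CPM per kilobase in the same order. The chains COL6A1 and COL6A2 had 280 and 275 in shSRPK1, 331 and 326 in oeSRPK1, and 170 and 178 in NT. COL1A2 thus came next after COL6A3 in shSRPK1 and NT, but lay below COL6A1 and COL6A2 in oeSRPK1. COL5A1, a regulatory chain of thin fibrils, had 149, 83.1 and 52.3 CPM per kilobase in shSRPK1, oeSRPK1 and NT, and COL7A1, the chain of anchoring fibrils, had 112, 85.9 and 39.4. COL12A1, a fibril-associated collagen, had 106, 30.3 and 80.0 CPM per kilobase in that order. COL1A1, the chain that normally supplies most of the type I helix, stood far lower at 1.86, 1.84 and 0.325 CPM per kilobase.

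In shSRPK1 against NT, the collagens that changed were higher, and 4 of the 7 were fibrillar. Called higher were COL1A2, COL5A1, COL5A2 and COL27A1 of the 7 tested fibrillar collagens, COL4A1 of the 4 basement membrane collagens, and COL7A1 and COL8A1 of the 10 others, while 0 were called lower. At an unadjusted p under 0.05 there were 12 collagens, all higher, against 4237 of all 14732 tested genes in either direction. DESeq2 called 10 collagens and limma-voom 8, all higher too, against 1425 and 1470 of all tested genes in either direction. The edgeR calls are 7 of 21 tested collagens (33.3%), against 5.43% of all 14732 tested genes called higher, 3.75% called lower and 9.18% called in either direction. The median log2 fold change was 0.62 over the 21 collagens and 0.01 over all genes, and 19 collagens had a positive value. COL17A1 did not pass the filter on low counts, so these counts describe the tested members only. A call means a Benjamini-Hochberg adjusted p under 0.05 in the quasi-likelihood test of edgeR, fitted to the 6 libraries together (n = 2 per group), and log2 fold changes carry their standard error.

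The type V chains regulate the diameter of collagen fibrils. COL5A1 (chr9:134641774-134844843) had 1790.4 and 1537 CPM in shSRPK1, 967 and 893 CPM in oeSRPK1, and 551 and 619 CPM in NT. Both shSRPK1 libraries lay above all 4 others, and both oeSRPK1 libraries lay above NT. COL5A1 was higher in shSRPK1 than in NT by a log2 fold change of 1.51 ± 0.15, or 2.84-fold (95% interval 2.24 to 3.61, edgeR adjusted p = 0.0034). Its partner chain COL5A2 (chr2:189031896-189225312) had 484 and 554 CPM in shSRPK1, 241 and 240.2 CPM in oeSRPK1, and 267 and 278 CPM in NT. Here the shSRPK1 libraries were again the highest, but oeSRPK1 lay just under NT. The difference between shSRPK1 and NT was 0.93 ± 0.12 on the log2 scale, or 1.91-fold (1.56 to 2.32, edgeR adjusted p = 0.00841).

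COL1A2 (chr7:94394561-94431232) had 4750.1 and 3983 CPM in shSRPK1, 2612 and 2626 CPM in oeSRPK1, and 2495 and 2622 CPM in NT. The oeSRPK1 and NT libraries shared 1 range, well below shSRPK1. The rise in shSRPK1 over NT was 0.77 ± 0.15 on the log2 scale, or 1.71-fold (1.34 to 2.17, edgeR adjusted p = 0.0246). COL27A1, a fibrillar collagen of cartilage growth zones, showed the same picture at a lower level, with 77.1 and 63.6 CPM in shSRPK1, 40.6 and 38.3 CPM in oeSRPK1, and 40.4 and 43.3 CPM in NT. It rose by 0.75 ± 0.13 in shSRPK1 (1.68-fold, edgeR adjusted p = 0.0189). COL11A2, the remaining fibrillar chain with close replicates, lay between 3.20 and 5.14 CPM over the 6 libraries and was not called in any comparison.

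COL8A1, a short-chain collagen of vessel walls and of the matrix under corneal endothelium, gave the largest called fold of the 21 collagens in this comparison. Its level was 126 and 158 CPM in shSRPK1, 42.2 and 38.8 CPM in oeSRPK1, and 43.1 and 49.9 CPM in NT. Only shSRPK1 stood apart, by 1.61 ± 0.15 on the log2 scale against NT, or 3.05-fold (2.41 to 3.85, edgeR adjusted p = 0.00264). COL8A2, the second chain of type VIII, lay between 2.59 and 4.21 CPM and was not called. COL7A1 (chr3:48564073-48595267) had 1308 and 1181 CPM in shSRPK1, 961 and 942 CPM in oeSRPK1, and 407 and 466 CPM in NT. All 4 transfected libraries lay more than 1.5 times above both NT libraries. COL7A1 was higher in shSRPK1 than in NT by 1.51 ± 0.14, or 2.85-fold (2.28 to 3.57, edgeR adjusted p = 0.00271).

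COL4A1 and COL4A2, which twist together in the type IV network and share the RefSeq interval printed above, did not get the same call. COL4A1 (chr13:110148963-110307233) had 256 and 262 CPM in shSRPK1, 148 and 139 CPM in oeSRPK1, and 153 and 146 CPM in NT. The shSRPK1 libraries lay above the other 4, and COL4A1 rose by 0.79 ± 0.11 over NT (1.73-fold, 1.45 to 2.07, edgeR adjusted p = 0.0094). COL4A2 (chr13:110305812-110513209) had 665 and 571 CPM in shSRPK1, 462 and 472 CPM in oeSRPK1, and 492 and 423 CPM in NT. Its shSRPK1 libraries were also the highest, but the log2 fold change of 0.43 ± 0.14 against NT missed the threshold (1.35-fold, 1.08 to 1.69, edgeR adjusted p = 0.0900). GENCODE 29, whose gene bounds are given here, starts COL4A2 further upstream than RefSeq does, inside the COL4A1 gene. Whether the 2 genes differed in response was not tested. COL4A5, a chain of specialised basement membranes such as that of the glomerulus, had only 9 and 14 reads in shSRPK1, 24 and 7 in oeSRPK1, and 22 and 21 in NT.

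The 7 calls in shSRPK1 were sensitive to the NT libraries. Without NT 1, 0 of the 7 were called, with edgeR adjusted p of 0.0673 to 0.297, and without NT 2 only COL7A1 and COL8A1 were called, with 0.0536 to 0.181 for the rest. Without oeSRPK1 1 or oeSRPK1 2, which add to the shared estimate of the spread, COL1A2 and COL27A1 lost their call (edgeR adjusted p = 0.0703 to 0.0875 and 0.0689 to 0.0895). When only the shSRPK1 and NT libraries were fitted, COL1A2, COL27A1, COL4A1 and COL5A2 lost their call (0.0539 to 0.0910). Without either shSRPK1 library all 7 were called, and further collagens passed. COL4A2, COL6A1, COL6A2 and COL16A1 were then called higher whichever was left out (edgeR adjusted p = 0.00947 to 0.0429 without shSRPK1 1 and 1.31e-06 to 0.00171 without shSRPK1 2). COL14A1 was called higher only without shSRPK1 1 (0.00362), and COL18A1 was called higher (0.0322) and COL3A1 lower (2.46e-05) only without shSRPK1 2. Each such fit leaves 1 library in a group, which is assumed to vary like the others, and 0 of the 7 turned direction. Calls over all tested genes likewise fell without either NT library and rose without either shSRPK1 library, so these shifts are not particular to collagens. Pericyte and smooth muscle markers summed to 316 and 241 CPM in shSRPK1, 135 and 136 CPM in oeSRPK1, and 182 and 177 CPM in NT, so shSRPK1 was highest on this sum as well. Most of the sum was PDGFRB, with 295.5 and 222.5 CPM in shSRPK1, 122.6 and 121.8 CPM in oeSRPK1, and 170 and 162.9 CPM in NT. Within that list of 7 genes, of which 4 were tested, PDGFRB alone was called higher in shSRPK1 than in NT (0.64 ± 0.15, edgeR adjusted p = 0.0374). Over all tested genes, 5.43% were called higher in that comparison. Without a call, ACTA2 and TAGLN were higher (0.73 and 0.52) and RGS5 lower (-1.10). The part of these markers in the collagen values was not tested.

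**Figure D3:**
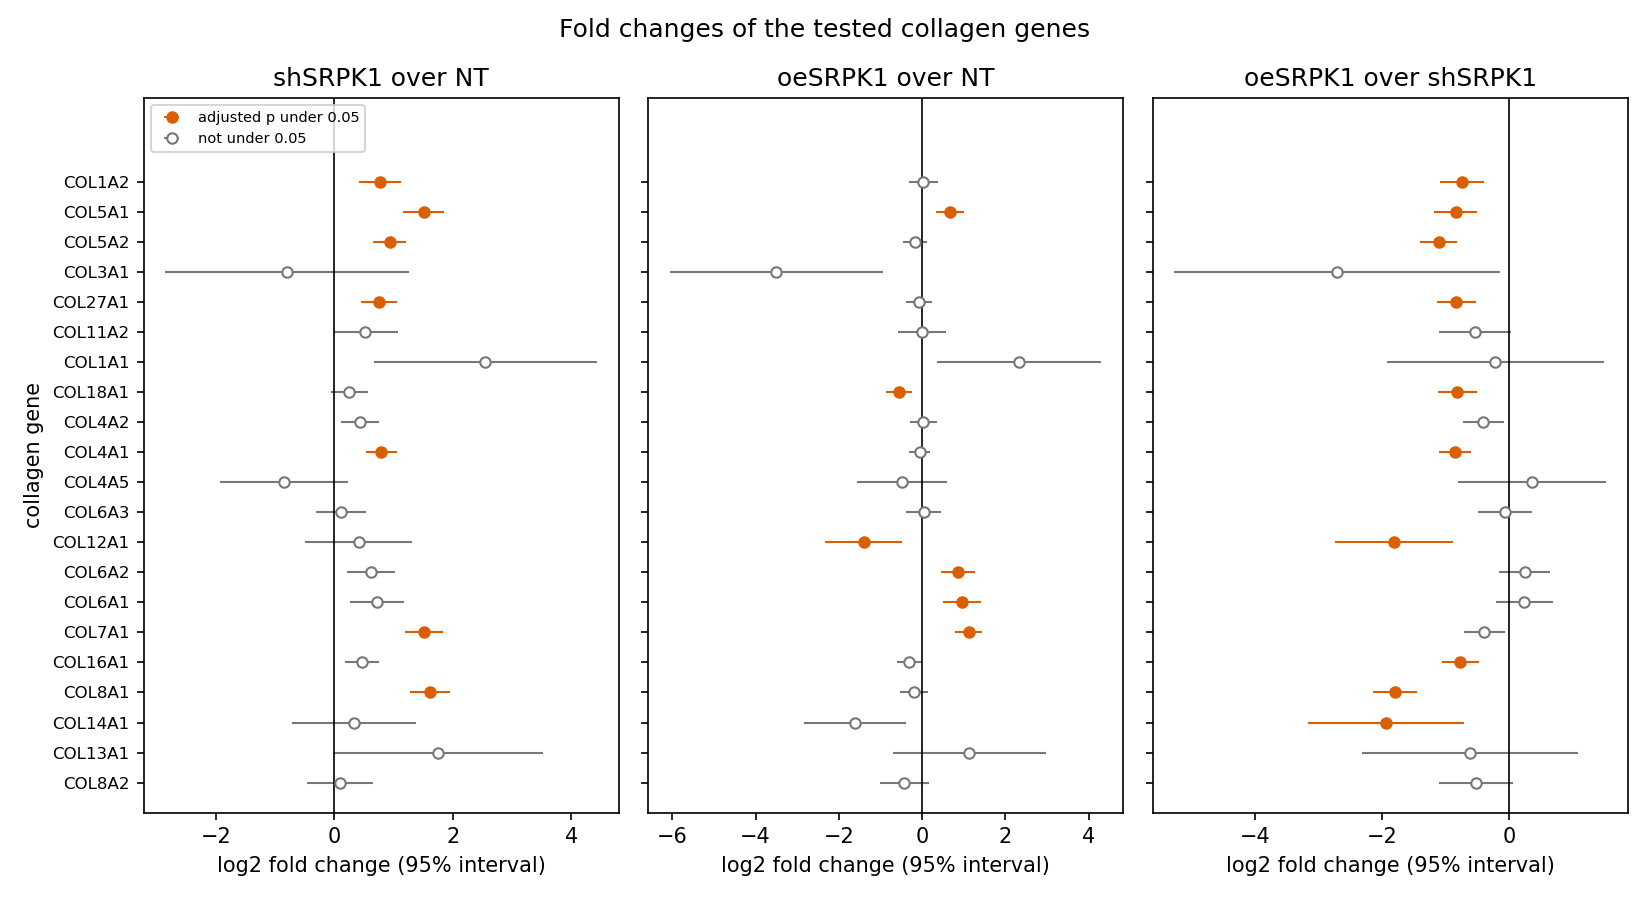
Log2 fold change with its 95% interval for each tested collagen in the 3 comparisons (shSRPK1 against NT, oeSRPK1 against NT, oeSRPK1 against shSRPK1), with filled points for an edgeR adjusted p under 0.05. Called collagens all lie right of 0 in shSRPK1 against NT, on both sides of 0 in oeSRPK1 against NT, and left of 0 in oeSRPK1 against shSRPK1.

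In oeSRPK1 against NT, collagens were called in both directions, the lower calls about as often as over all tested genes. COL5A1, COL6A1, COL6A2 and COL7A1 were called higher, and COL12A1 and COL18A1 were called lower, which makes 6 of the 21 tested collagens (28.6%), against 20.6% of all tested genes. The 4 called higher were 19.0% of the collagens, against 11.2% of all genes, and the 2 called lower were 9.52%, against 9.45%. The median log2 fold change was -0.06 over the collagens and -0.00 over all genes. This comparison shares its NT libraries with the one above, so the 2 are not independent.

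Type VI collagen forms beaded microfilaments between cells and the interstitial matrix. Its neighbouring genes on chromosome 21, COL6A1 (chr21:45981737-46005050) and COL6A2 (chr21:46098097-46132849), were both higher in oeSRPK1. COL6A1 had 1786 and 1211 CPM in shSRPK1, 1798 and 1738 CPM in oeSRPK1, and 851 and 964 CPM in NT. COL6A2 had 1715 and 1243 CPM in shSRPK1, 1792 and 1719 CPM in oeSRPK1, and 919.7 and 1000.4 CPM in NT. Every transfected library lay above both NT libraries for either gene, with shSRPK1 2 the lowest of the 4. Against NT, oeSRPK1 was 1.95-fold higher for COL6A1 (0.96 ± 0.20, 1.42 to 2.67, edgeR adjusted p = 0.0141) and 1.83-fold higher for COL6A2 (0.87 ± 0.18, 1.38 to 2.43, edgeR adjusted p = 0.0139). In shSRPK1 the values against NT were 0.72 ± 0.20 for COL6A1 and 0.62 ± 0.18 for COL6A2, which missed the threshold (edgeR adjusted p = 0.0575 and 0.0644).

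The third chain, COL6A3 (chr2:237324003-237414375), had 20699 and 16750 CPM in shSRPK1, 18979 and 16852 CPM in oeSRPK1, and 18428 and 16424 CPM in NT. Its groups overlapped fully, and the fold against NT was 1.07 in shSRPK1 (0.802 to 1.44, edgeR adjusted p = 0.749) and 1.03 in oeSRPK1 (0.767 to 1.38, edgeR adjusted p = 0.901). A change of COL6A3 as large as that of COL6A1 in oeSRPK1 lies outside this last interval. Per kilobase of exon, COL6A3 exceeded COL6A1 by 3.15 and 3.76 times in shSRPK1, 2.87 and 2.64 times in oeSRPK1, and 5.90 and 4.63 times in NT. COL6A1 and COL6A2 kept a ratio between 0.932 and 1.05 in all 6 libraries.

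COL7A1 and COL5A1 were also called higher in oeSRPK1 than in NT, by smaller folds than in shSRPK1. COL7A1 was 2.18-fold higher (1.12 ± 0.14, 1.74 to 2.72, edgeR adjusted p = 0.00234), and COL5A1 was 1.59-fold higher (0.67 ± 0.15, 1.26 to 2.01, edgeR adjusted p = 0.0178). COL12A1 (chr6:75084326-75206051), which coats fibrils, had 777 and 1881 CPM in shSRPK1, 377 and 380.3 CPM in oeSRPK1, and 1054 and 944 CPM in NT. Both oeSRPK1 libraries lay below all others, whereas the shSRPK1 libraries fell on either side of NT. COL12A1 was lower in oeSRPK1 than in NT, at 0.379 times the level (-1.40 ± 0.38, 0.200 to 0.720, edgeR adjusted p = 0.0483). COL12A1 did not pass without a filter on low counts (edgeR adjusted p = 0.199) and after thinning all libraries to the shallowest (0.0540).

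COL18A1 (chr21:45405137-45513720), a basement membrane collagen whose C-terminal fragment is endostatin, had 712 and 639 CPM in shSRPK1, 360.35 and 409 CPM in oeSRPK1, and 591 and 543 CPM in NT. The groups did not overlap, and oeSRPK1 was at 0.678 times the NT level (-0.56 ± 0.14, 0.546 to 0.842, edgeR adjusted p = 0.0249). In shSRPK1 the difference from NT was 0.25 ± 0.13 (edgeR adjusted p = 0.256). Exons of SLC19A1 on the opposite strand cover 1401 bases of COL18A1 exons (16.4% of their length), and the strand setting of the counting is not known here, so reads of the pair cannot be told apart. The 6 calls of oeSRPK1 against NT were lost without oeSRPK1 1 (edgeR adjusted p = 0.0578 to 0.218) or NT 1 (0.0587 to 0.214). Only COL7A1 was called without oeSRPK1 2 (0.0813 to 0.152 for the rest) or NT 2 (0.0977 to 0.163), while without either shSRPK1 library all 6 were called, and COL14A1 and COL16A1 were called lower as well (edgeR adjusted p = 3.24e-06 and 0.00756 without shSRPK1 1, 4.35e-06 and 0.00665 without shSRPK1 2). Both oeSRPK1 libraries, most of all the shallow oeSRPK1 2, held the muscle transcripts given above, whose part in these calls was not tested.

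Set directly against shSRPK1, oeSRPK1 had lower levels of every collagen that was called. COL1A2, COL5A1, COL5A2 and COL27A1 of the 7 fibrillar chains fell, as did COL4A1 and COL18A1 of the 4 basement membrane chains and COL8A1, COL12A1, COL14A1 and COL16A1 of the 10 others. These were 10 of 21 tested collagens (47.6%), against 11.3% of all tested genes called lower and 22.8% called in either direction. The median log2 fold change was -0.74 over the collagens and -0.00 over all genes. None was called higher. An unadjusted p under 0.05 was reached by 13, all lower, against 5597 of all 14732 tested genes in either direction. DESeq2 called 12 collagens and limma-voom 9, all lower, against 2773 and 3576 of all tested genes in either direction. Of 4 tested pericyte and smooth muscle markers, 2 were called lower in the same comparison, against the 11.3% of all tested genes given above. These were PDGFRB (-1.08, edgeR adjusted p = 0.00392) and ACTA2 (-0.73, 0.0387). All 4 had an unadjusted p under 0.05, as did 5597 of all 14732 tested genes, with TAGLN lower (-0.71) but RGS5 higher (1.26) in oeSRPK1. The part of these markers in the collagen values was not tested.

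COL8A1 fell to 0.287 times its shSRPK1 level (-1.80 ± 0.15, 0.226 to 0.365, edgeR adjusted p = 0.00108). COL5A2 stood at 0.463 times (-1.11 ± 0.12, 0.380 to 0.566, edgeR adjusted p = 0.00229), COL4A1 at 0.555 times (-0.85 ± 0.11, 0.464 to 0.663, edgeR adjusted p = 0.00341) and COL5A1 at 0.559 times (-0.84 ± 0.15, 0.442 to 0.707, edgeR adjusted p = 0.00817). COL27A1, COL18A1 and COL1A2 lay at 0.563, 0.569 and 0.600 times their shSRPK1 level (edgeR adjusted p = 0.00661, 0.00708 and 0.0141). For these 7 genes both oeSRPK1 libraries lay below both shSRPK1 libraries, which describes the values behind the calls and is no further test. COL7A1, at 0.765 times (0.614 to 0.953, edgeR adjusted p = 0.0772), and COL4A2, at 0.756 times (0.604 to 0.945, edgeR adjusted p = 0.0722), did not pass. The type VI chains differed little, with 1.18-fold for COL6A1 (0.864 to 1.61), 1.19-fold for COL6A2 (0.896 to 1.57) and 0.957-fold for COL6A3 (0.714 to 1.28).

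The fibril-associated collagens bind the surface of fibrils and carry interrupted helices. COL16A1 had 102 and 95.1 CPM in shSRPK1, 53.3 and 64.1 CPM in oeSRPK1, and 72.2 and 71.3 CPM in NT, with NT between the transfected groups. It fell in oeSRPK1 to 0.589 times shSRPK1 (-0.76 ± 0.13, edgeR adjusted p = 0.00688) and was not called against NT in either group (edgeR adjusted p = 0.0561 in shSRPK1 and 0.129 in oeSRPK1). COL14A1 had 8.68 and 22.5 CPM in shSRPK1, 3.33 and 5.69 CPM in oeSRPK1, and 13.4 and 11.2 CPM in NT. The oeSRPK1 libraries were the lowest, and the difference from shSRPK1 was -1.94 ± 0.51 (edgeR adjusted p = 0.0394). COL12A1 fell to 0.285 times its shSRPK1 level (-1.81 ± 0.39, 0.149 to 0.545, edgeR adjusted p = 0.0228). It missed the threshold with no filter on low counts (edgeR adjusted p = 0.112) and with only the shSRPK1 and oeSRPK1 libraries fitted (0.0514). COL14A1 missed it in limma-voom (adjusted p = 0.0565) and in that smaller edgeR fit (0.0759).

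Of these 10 calls, only COL8A1 was made without oeSRPK1 1 (edgeR adjusted p = 0.0601 to 0.284 for the rest), and 4 were made without oeSRPK1 2 (0.0501 to 0.103 for the rest). Without NT 1 or NT 2, COL1A2, COL12A1 and COL14A1 lost theirs (0.0515 to 0.0836 and 0.0519 to 0.0838). All 10 were made without either shSRPK1 library, and 0 turned direction. COL3A1, COL4A2 and COL7A1 were then called lower too (edgeR adjusted p = 2.07e-06, 0.0313 and 0.0208 without shSRPK1 1, 0.00936, 0.00063 and 0.00132 without shSRPK1 2). Without shSRPK1 1, COL6A1 and COL6A2 were called higher in oeSRPK1 than in the remaining shSRPK1 library (0.51 and 0.46, edgeR adjusted p = 0.00196 and 0.00342).

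Some collagens differed between replicates as much as between groups. Over the 21 tested collagens, the higher replicate exceeded the lower by a median of 1.21 times in shSRPK1, 1.07 in oeSRPK1 and 1.12 in NT, and by over 1.5 times for 5, 4 and 1 of them. COL3A1, the reticular fibre collagen, had 10.1 and 54.8 CPM in shSRPK1, 3.96 and 7.50 CPM in oeSRPK1, and 49.4 and 62.1 CPM in NT. The oeSRPK1 libraries were the lowest, shSRPK1 1 lay near them and shSRPK1 2 near NT. Its log2 fold change in oeSRPK1 against NT was -3.50 ± 0.97, or 0.0882 times, and did not pass in the fit of all libraries (edgeR adjusted p = 0.0701). It did pass without shSRPK1 1 (-3.61, edgeR adjusted p = 5.33e-07) or shSRPK1 2 (2.63e-07), and in DESeq2 (adjusted p = 0.00583). COL3A1 neighbours COL5A2 on chromosome 2 (chr2:188974320-189012746), and that neighbour was called higher in shSRPK1.

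COL13A1, a transmembrane collagen of cell-matrix contacts, had 36.9 and 8.32 CPM in shSRPK1, 15.1 and 14.7 CPM in oeSRPK1, and 6.99 and 6.64 CPM in NT. Every transfected library exceeded NT, but the shSRPK1 replicates differed by 4.44 times and lay on either side of oeSRPK1, so no comparison passed (edgeR adjusted p = 0.178 for shSRPK1 and 0.322 for oeSRPK1 against NT). In oeSRPK1 against shSRPK1 its log2 fold change of -0.61 ± 0.67 became 0.81 without shSRPK1 1 (edgeR adjusted p = 0.00444) and -1.34 without shSRPK1 2 (8.58e-07). Against NT, COL13A1 was called higher in shSRPK1 without shSRPK1 2 (7.12e-10) and in oeSRPK1 without either shSRPK1 library (2.22e-05 and 6.88e-06). For COL12A1, shSRPK1 against NT gave 0.41 ± 0.37 with both libraries (edgeR adjusted p = 0.517), 0.91 without shSRPK1 1 (4.22e-06) and -0.36 without shSRPK1 2 (0.0201), so its direction rested on which library was used.

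COL1A1 (chr17:50183289-50201632) had 20.6 and 16.0 CPM in shSRPK1, 6.93 and 29.2 CPM in oeSRPK1, and 3.98 and 2.40 CPM in NT. All 4 transfected libraries lay above NT, and the oeSRPK1 libraries differed by 4.22 times. The fold over NT was 5.85 in shSRPK1 (2.55 ± 0.75, 1.58 to 21.7, edgeR adjusted p = 0.0978) and 5.05 in oeSRPK1 (2.34 ± 0.78, 1.29 to 19.8, edgeR adjusted p = 0.0960), and neither passed. DESeq2 called both (adjusted p = 0.0308 and 0.0230), and edgeR called shSRPK1 against NT without oeSRPK1 1 or oeSRPK1 2 (adjusted p = 0.0336 and 0.0308) and oeSRPK1 against NT without oeSRPK1 1 (3.19, adjusted p = 0.0149). Its highest library, oeSRPK1 2, is the one with 3135 CPM of muscle transcripts, and their part in its COL1A1 level was not tested.

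**Figure D4:**
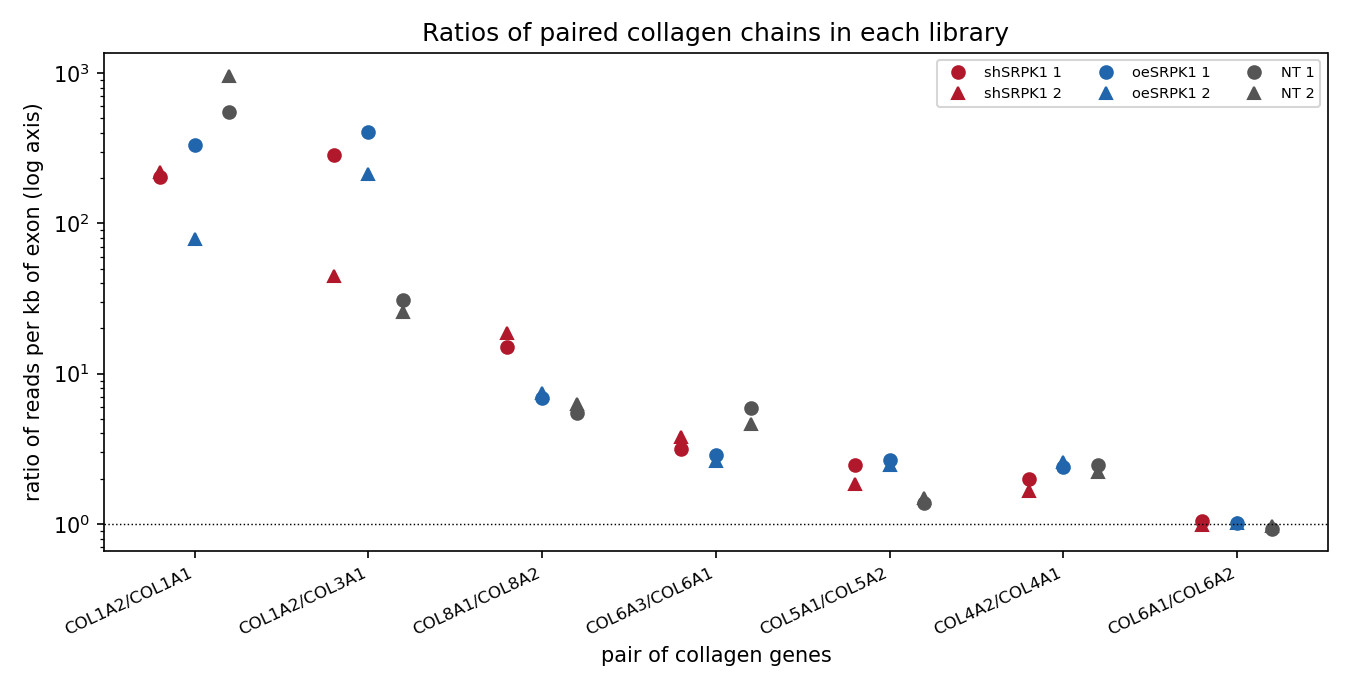
Ratio of reads per kilobase of exon for pairs of collagen chains in each library, on a log axis, with colours for the groups, circles for replicate 1 and triangles for replicate 2. COL1A2 exceeds COL1A1 in every library, by between 79.1 and 961 times, whereas COL6A1 and COL6A2 lie near 1.

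The balance between collagen chains is given per library as a description, with no test. Per kilobase of exon, COL1A2 exceeded COL1A1 by 203 and 219 times in shSRPK1, 332 and 79.1 times in oeSRPK1, and 552 and 961 times in NT. Every NT library lay above every transfected one, and when lengths were taken from the principal transcript the ratios were 286 and 310, 469 and 112, and 779 and 1358. COL5A1 exceeded COL5A2 by 2.46 and 1.85 times in shSRPK1, 2.67 and 2.48 times in oeSRPK1, and 1.38 and 1.48 times in NT, so all transfected libraries lay above NT. COL4A2 exceeded COL4A1 by 1.98 and 1.66 times in shSRPK1, against 2.38 and 2.60 times in oeSRPK1 and 2.45 and 2.22 times in NT. COL8A1 exceeded COL8A2 by 15.1 and 18.6 times in shSRPK1, against 6.85 and 7.45 times in oeSRPK1 and 5.51 and 6.26 times in NT. Against COL3A1, with which type I often shares fibrils, COL1A2 stood 287 and 44.4 times higher in shSRPK1, 403 and 214 times higher in oeSRPK1, and 30.8 and 25.8 times higher in NT.

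Genes that modify collagen chains were read from the same fit. Of 14 tested hydroxylases, glycosyltransferases and partners, 8 were called higher and 1 lower in shSRPK1 against NT, 5 higher and 1 lower in oeSRPK1 against NT, and 0 higher and 7 lower in oeSRPK1 against shSRPK1 (median log2 fold changes 0.75, 0.13 and -0.43). Over all tested genes, 9.18%, 20.6% and 22.8% were called in these comparisons, in either direction. PLOD1, a lysyl hydroxylase, had 1540 and 1101 CPM in shSRPK1, 1125 and 1008 CPM in oeSRPK1, and 486 and 577 CPM in NT. All transfected libraries lay above NT, by 1.31 ± 0.19 in shSRPK1 (edgeR adjusted p = 0.0102) and 1.005 ± 0.19 in oeSRPK1 (0.0106). P4HA1, a catalytic subunit of prolyl 4-hydroxylase, rose in both groups as well (0.97 ± 0.18, edgeR adjusted p = 0.0203, and 1.02 ± 0.18, 0.00801). The prolyl 3-hydroxylases P3H1 (-0.93 ± 0.16, edgeR adjusted p = 0.00832) and P3H3 (-1.22 ± 0.16, 0.00319) were lower in oeSRPK1 than in shSRPK1. CRTAP, the partner of P3H1, was the 1 gene called lower against NT, with 214 and 233 CPM in shSRPK1, 177 and 156 CPM in oeSRPK1, and 377 and 354 CPM in NT. Its fall was -0.71 ± 0.12 in shSRPK1 (edgeR adjusted p = 0.0186) and -1.13 ± 0.13 in oeSRPK1 (0.00163). Without any 1 of the NT or oeSRPK1 libraries, 0 of the 9 calls in shSRPK1 against NT were made. Under the same omissions CRTAP was called lower in oeSRPK1 than in NT each time (edgeR adjusted p = 0.0244 to 0.0335), whereas at most 1 of the 5 higher calls in oeSRPK1 was made. The rise of PLOD1 in oeSRPK1 was lost each time (0.0605 to 0.144), and that of P4HA1 was lost without NT 1, NT 2 or oeSRPK1 1 (0.0506 to 0.128). In oeSRPK1 against shSRPK1 the list had at most 3 calls, and P3H1 and P3H3 were both lost without oeSRPK1 1 (edgeR adjusted p = 0.118 and 0.072).

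Further along the pathway, the lists were smaller. The shares called over all tested genes, 9.18%, 20.6% and 22.8%, stand beside their counts too. Of 9 chaperone and export genes, 1 was called higher in shSRPK1 against NT, 1 higher in oeSRPK1 against NT, and 2 higher and 2 lower in oeSRPK1 against shSRPK1, so few that the first 2 counts lie near or under those shares. SERPINH1, the collagen chaperone HSP47, rose by 0.63 ± 0.12 in shSRPK1 over NT (edgeR adjusted p = 0.0231) and was lower in oeSRPK1 than in shSRPK1 (-0.75 ± 0.12, 0.00666). Of 7 propeptide proteinases and enhancers, 2 were higher in shSRPK1 and 2 lower in oeSRPK1 against NT, and 3 were lower in oeSRPK1 against shSRPK1. PCOLCE, which enhances removal of the C-propeptide, had 190.5 and 225 CPM in shSRPK1, 45.4 and 54.5 CPM in oeSRPK1, and 74.6 and 79.7 CPM in NT. It thus lay above NT in shSRPK1 (1.43 ± 0.14, edgeR adjusted p = 0.00314) and below NT in oeSRPK1 (-0.64 ± 0.14, 0.0182). ADAMTS2, the N-propeptidase, was lower in oeSRPK1 than in NT (-1.26 ± 0.20, edgeR adjusted p = 0.00569). Directly against shSRPK1, PCOLCE was lower in oeSRPK1 (-2.07 ± 0.14, edgeR adjusted p = 0.000594) and passed whichever of the NT and oeSRPK1 libraries was left out (0.00461 to 0.0179). Against NT, the SERPINH1 and PCOLCE calls were lost without NT 1 or NT 2, and SERPINH1 in shSRPK1 and PCOLCE in oeSRPK1 also without either oeSRPK1 library. ADAMTS2 against NT was lost without NT 2 or oeSRPK1 1 (edgeR adjusted p = 0.0658 and 0.107), and SERPINH1 against shSRPK1 without oeSRPK1 1 (0.108).

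**Figure D5:**
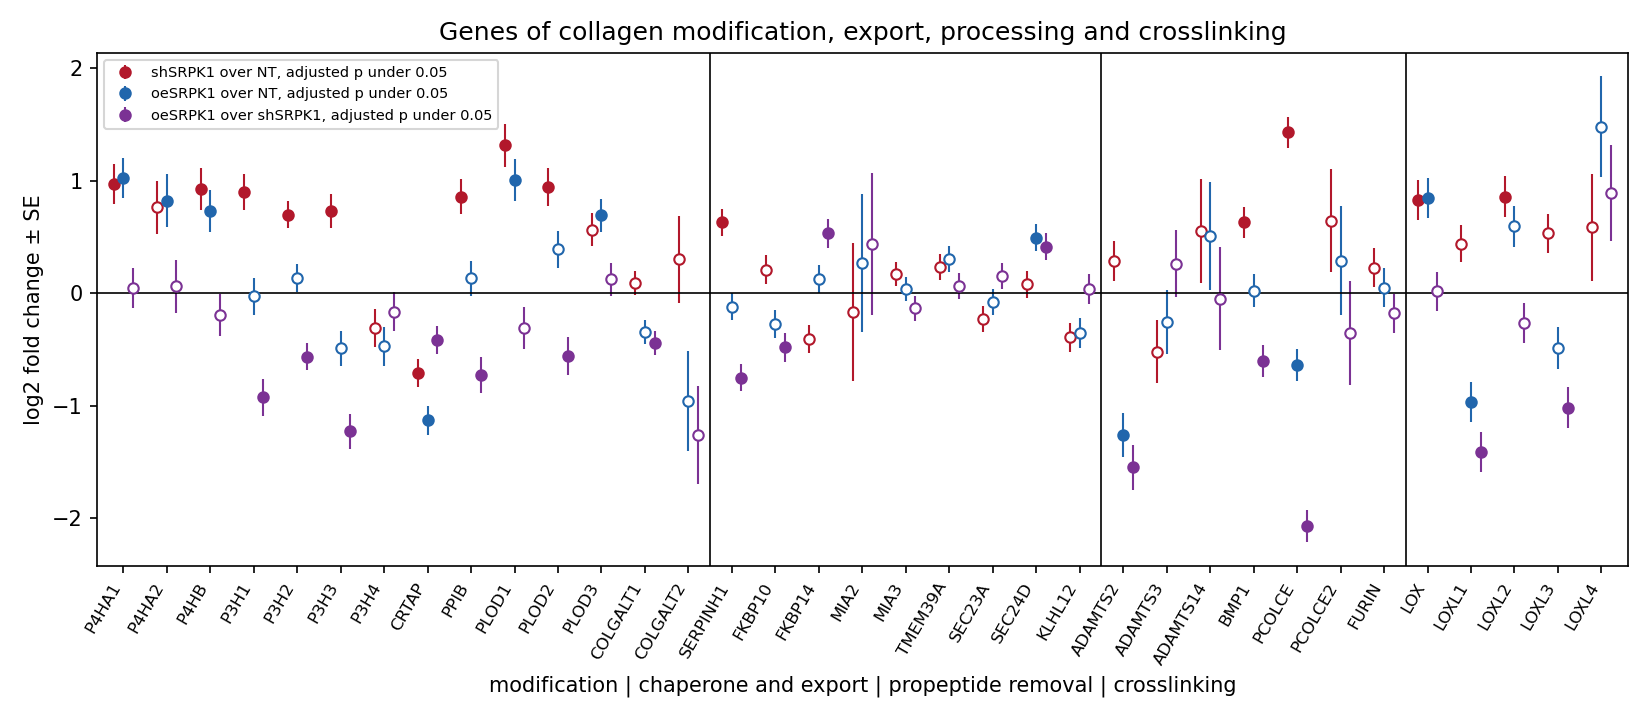
Log2 fold change ± SE of the tested genes for collagen modification, chaperoning and export, propeptide removal and crosslinking, in the 3 comparisons (1 colour each), with filled points for an edgeR adjusted p under 0.05. PCOLCE lies above 0 in shSRPK1 against NT and below 0 in oeSRPK1 against NT, and CRTAP lies below 0 in both.

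Among the 5 lysyl oxidases, 2 were higher in shSRPK1 against NT, 1 was higher and 1 lower in oeSRPK1 against NT, and 2 were lower in oeSRPK1 against shSRPK1. For this and the next lists, the shares called over all tested genes were again 9.18%, 20.6% and 22.8%, in either direction. LOX had 841.5 and 1004.5 CPM in shSRPK1, 1020.5 and 846 CPM in oeSRPK1, and 456 and 582 CPM in NT, and was higher than NT in both groups (0.83 ± 0.18, edgeR adjusted p = 0.0290, and 0.85 ± 0.18, 0.0154). LOXL1 was lower in oeSRPK1 than in NT (-0.97 ± 0.18, edgeR adjusted p = 0.00965). Of 8 tested collagen receptors, 0 were called in shSRPK1 against NT by edgeR, DESeq2 or limma-voom, and 2 had an unadjusted p under 0.05. In oeSRPK1 against NT 2 of the 8 were called, near the share of all genes. The integrin chain ITGA2 rose (1.12 ± 0.19, edgeR adjusted p = 0.00755) and the endocytic receptor MRC2 fell (-0.48 ± 0.12, 0.0279). Against shSRPK1, 1 receptor was called higher and 2 lower in oeSRPK1. Of 6 collagen-cleaving proteinases, 1 was called higher in shSRPK1 against NT, and 1 higher and 2 lower in oeSRPK1 against NT. In oeSRPK1 against shSRPK1, 1 proteinase was called lower. MMP13, a fibrillar collagenase, rose against NT in both groups, by 2.48 ± 0.35 in shSRPK1 (edgeR adjusted p = 0.0170) and 1.27 ± 0.34 in oeSRPK1 (0.0487). The gelatinase MMP2 fell in oeSRPK1 against NT (-0.58 ± 0.13, edgeR adjusted p = 0.0173). The MMP13 call in oeSRPK1 was narrow and missed the threshold under DESeq2 size factors, upper-quartile scaling and limma-voom (adjusted p = 0.0501, 0.0504 and 0.0542). Without NT 1 or NT 2, 0 of these calls of lysyl oxidases, receptors or proteinases against NT were made, and without oeSRPK1 1 or oeSRPK1 2 only MMP13 in shSRPK1 (edgeR adjusted p = 0.0457 and 0.0462) and, without oeSRPK1 2, ITGA2 in oeSRPK1 (0.0434). Only 2 of 9 fibril-binding proteoglycans and glycoproteins passed the filter on low counts, and 0 of them were called in any comparison by edgeR, DESeq2 or limma-voom, with 1 at an unadjusted p under 0.05 in shSRPK1 against NT.

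Fibroblast markers summed to 402 and 240 CPM in shSRPK1, 226 and 240 CPM in oeSRPK1, and 295 and 301 CPM in NT. Of 6 tested genes, 0 were called in shSRPK1 against NT, 1 in oeSRPK1 against NT and 1 in oeSRPK1 against shSRPK1. Over all tested genes the shares called were 9.18%, 20.6% and 22.8%, so these counts do not exceed them. PDGFRA was lower in oeSRPK1 against NT (-1.46, edgeR adjusted p = 0.0218), and TWIST1 was lower in oeSRPK1 against shSRPK1 (-0.81, edgeR adjusted p = 0.0302). Of the 11 tested skeletal muscle markers, ACTA1 and TNNT1 were called higher in oeSRPK1 against NT (edgeR adjusted p = 0.0481 and 0.00619). Over all tested genes, 11.2% were called higher there. An unadjusted p under 0.05 was reached by 9 of the 11, against 5255 of all 14732 tested genes. Several of these markers passed the filter on low counts only through oeSRPK1. MYH1, for example, had 0 and 0 reads in shSRPK1, 21 and 47 in oeSRPK1, and 0 and 0 in NT. The median log2 fold change of the list, 9.81, thus rests in part on counts of 0 in NT and is no measured size. TNNT1 already had 67.8 and 69.3 CPM in NT, whereas ACTA1 had 0.0971 and 0.141 CPM there and 74.1 and 897 CPM in oeSRPK1. The part of these markers in the collagen values was not tested. Endothelial markers summed to at most 1.05 CPM and immune markers to at most 0.765 CPM in any library.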

How the data were processed

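Polyadenylated RNA from 6 T98G libraries had been sequenced as paired reads of 101 bp, per the labels' protocols, from RNA with an integrity number above 8. The authors deposited unnormalised, whole-number counts of reads per gene. The submitters' processing notes name FastQC, Trimmomatic, STAR 2.5.3 and the build hg38. Which tool counted the reads, with which annotation and strand setting, is not given in the sources used here, so reads of overlapping antisense genes cannot be separated. The last 5 entries of each table name no gene (23.5% to 26.7% of the total) and entered neither library sizes nor tests.

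Symbols, positions and exon lengths came from a gene name table and GENCODE 29 (GRCh38), for 56753 of 60483 ids. In R 4.3.3, edgeR 4.0.16 filterByExpr (minimum count 10, minimum total 15) left 14732 genes with 99.8% of gene reads. After TMM scaling, glmQLFit (robust) and glmQLFTest used the 6 libraries together, with Benjamini-Hochberg adjustment over all tested genes and a call under 0.05. Other settings tried were upper-quartile scaling, DESeq2 size factors, no filter, a stricter filter (CPM of 5), DESeq2 1.42.0, limma-voom (limma 3.58.1) with and without a spread per group, thinned libraries, only the 4 libraries compared, a block for the replicate number, and the omission of each library. The fits were tested on simulated data. Reads carried no molecular identifiers, so the floor of 3 counts covers counting error only.

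Every collagen passing the rule was described, those called in any comparison by their value in every library, others with close replicates by ranges. COL1A1, COL3A1, COL13A1, COL4A2 and COL6A3 were also given in full, chosen after their values were seen. From each pathway list, genes were taken among the 3 with the smallest adjusted p per comparison. The collagens and lists were chosen with earlier results of these data known.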

Additional observations from a re-analysis of the deposited data

How the results depend on the processing

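Under the scaling alternatives every collagen call was made again, and the median of all genes moved by less than 0.1 on the log2 scale. In shSRPK1 against NT, the 7 collagens became 11 with no filter on low counts and 4 when only the 4 libraries compared were fitted (3 of the 7, with COL1A2, COL27A1, COL4A1 and COL5A2 lost and COL1A1 gained), and 0 to 15 when 1 library was left out. In oeSRPK1 against NT, the 6 became 10 with only the 4 libraries compared and 0 to 11 with 1 library left out. In oeSRPK1 against shSRPK1, the 10 became 1 to 17 with 1 library left out, and COL1A2, COL12A1 and COL14A1 lost their call with only the 4 libraries compared. That setting also left PCOLCE as the 1 pathway gene called in shSRPK1 against NT. Over all tested genes, shSRPK1 against NT gave 1352 calls, 2616 with no filter, 129 with only the 4 libraries compared and 29 to 4595 with 1 left out. The same settings gave 3036 calls in oeSRPK1 against NT, 6289 with a spread per group, 6331 with only the 4 libraries compared and 293 to 6415 with 1 left out. In oeSRPK1 against shSRPK1 there were 3361, 1505 with only the 4 libraries compared and 144 to 6152 with 1 left out. COL12A1 in shSRPK1 against NT was 0.91 without shSRPK1 1 and reversed to -0.36 without shSRPK1 2, and COL13A1 in oeSRPK1 against shSRPK1 was -1.34 without shSRPK1 2 and reversed to 0.81 without shSRPK1 1. The cause was not tested in any of these. Samples shared only a replicate number: deviations of same-numbered libraries correlated at 0.0235 between shSRPK1 and oeSRPK1, 0.0104 between shSRPK1 and NT, and -0.0186 between oeSRPK1 and NT, over 14732 genes. A block for the replicate number gave 7 collagens of 1006 called genes in shSRPK1 against NT, 8 of 2639 in oeSRPK1 against NT, and 11 of 2846 in oeSRPK1 against shSRPK1, with every collagen call made again. Depth limits the low collagens: in oeSRPK1 2, 3 reads stood for 0.776 CPM, so COL4A5 and COL17A1 lay close to what can be counted.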
